A study of Mus musculus with 2 samples.

Results

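The genes described here are 8 early neural markers, namely Sox1, Sox3, Sox11, Nes, Pax6, Map2, Ncam1 and Pax3. They were taken by symbol from the 18888 genes of the deposited table, and each had exactly 1 row. RNA was sequenced from 46C mouse embryonic stem cells (mESCs) at passages 21 to 24, grown on gelatin in conventional mESC medium. One culture carried the empty PiggyBac vector (PB) and the other overexpressed polyadenylated TERRA, the telomeric repeat RNA, from the same vector (PB-TERRA). There was 1 library per condition, so the comparison is between 2 libraries, has no replicate check and carries no test. Whether the transfected cells were pools or clones, and which promoter drove TERRA, is not given in the sources used here.

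46C cells carry a green fluorescent protein reporter in the Sox1 gene, which is switched on when mESCs commit to the neural lineage. Sox1 and Sox3 belong with Sox2 to the SoxB1 group, transcription factors that keep neural cells in the progenitor state, while the SoxC factor Sox11 acts later, as progenitors become neurons. Pax6 and Pax3 pattern the neural tube, Pax6 in the forebrain, eye and ventral cord and Pax3 in the dorsal cord and the neural crest. Nestin (Nes) is the intermediate filament of neural stem cells, Map2 binds microtubules in the dendrites of neurons, and Ncam1 is an adhesion molecule of neural and many other cells. In undifferentiated mESCs most of these genes are silent or low.

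The level is given as FPKM, which scales the sequenced fragments to gene length and library depth. The reads behind each value were estimated from the steps between the low values of short genes, and summed to 24657269 in PB against 24807788 in PB-TERRA. The 95% intervals given below are exact binomial (Clopper-Pearson) or exact Poisson intervals of these reads and cover counting error only, not the spread between cultures. Each ratio is the log2 of PB-TERRA over PB after 0.1 FPKM was added to both, which makes low genes differ less than their levels do. Of the 8 markers, 6 reached 1 FPKM in at least 1 library, as did 12263 genes of the table. Pax6 and Pax3 stayed under this filter.

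The sequences before the start sites of Nes and Sox1 are shown because these markers differed in opposite directions between the libraries, and because Sox1 is the reporter gene of the line. They are RefSeq sequences on GRCm38.p6, + strand, while the submitters' processing notes name mm9 for the deposited values. Nes is shown from chr3:87970843-87971092 and Sox1 from chr8:12395269-12395518. Capitals mark a match to 1 of 4 searched words.
Nes: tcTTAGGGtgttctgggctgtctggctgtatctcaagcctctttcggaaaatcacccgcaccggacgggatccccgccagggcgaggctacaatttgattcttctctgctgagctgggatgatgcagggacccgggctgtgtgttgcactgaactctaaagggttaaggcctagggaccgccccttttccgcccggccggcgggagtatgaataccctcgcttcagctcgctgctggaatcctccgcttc
Sox1: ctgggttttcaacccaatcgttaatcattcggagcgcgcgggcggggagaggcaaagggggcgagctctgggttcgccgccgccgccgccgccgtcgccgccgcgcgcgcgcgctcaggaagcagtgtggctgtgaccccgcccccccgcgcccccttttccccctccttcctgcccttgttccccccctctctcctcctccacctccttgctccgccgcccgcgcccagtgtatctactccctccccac
Sox1, around the octamer: ccagcgcgccATGCAAATcaccgccgcc

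The last stretch lies at chr8:12395527-12395554, and its octamer starts 19 bases into the transcript. Windows of 250 bases before and 50 bases from the RefSeq start site on were found for 5 of the 8 markers, Nes, Sox1, Sox11, Map2 and Pax6, the last with a window at each of its listed start sites. On both strands they were searched for the telomeric repeat TTAGGG, the octamer ATGCAAAT and the SOX core words ACAAAG and ACAATG. These words can share end bases, but no marker window held more than 1 match. The telomeric repeat, the unit that TERRA also holds, was searched in this frame only. In that frame it was found once, in Nes, 248 bases before the start site, and 10.6% of all 32851 windows hold it. Other frames of the repeat were not searched, and the Nes stretch shown also holds gggtta, left unmarked. The octamer was found in Sox1 alone among the 5 markers, against 1.74% of all windows. ACAAAG stood in 1 Pax6 window (18.7% of all windows), and ACAATG in none of the markers' windows (12.6%). The Sox1 and Map2 windows held 37 CG pairs each, where the median of all windows is 7. These matches are letters only and were not related to the expression values.

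The markers covered a wide range of levels, and their order was the same in both libraries. Nes stood highest with 27.30 FPKM in PB against 20.93 in PB-TERRA. Sox11 followed with 4.67 and 4.30 FPKM, Map2 with 3.23 and 3.63, and Ncam1 with 2.5 and 2.87. Sox3 had 1.29 and 1.93 FPKM, Sox1 had 1.06 and 1.56, and Pax6 had 0.63 and 0.51. Pax3 was close to absent, with 0.02 and 0.04 FPKM. Sox3 and Sox1 were the only neighbours in this order whose Poisson intervals overlapped, in PB (0.996 to 1.66 FPKM for Sox3 and 0.860 to 1.28 for Sox1) and in PB-TERRA (1.55 to 2.35 and 1.32 to 1.83). In PB the level of Nes was above that of 83.0% of all genes in the table, that of Sox11 above 53.2%, that of Sox1 above 36.7% and that of Pax3 above 5.91%.

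**Figure D1:**
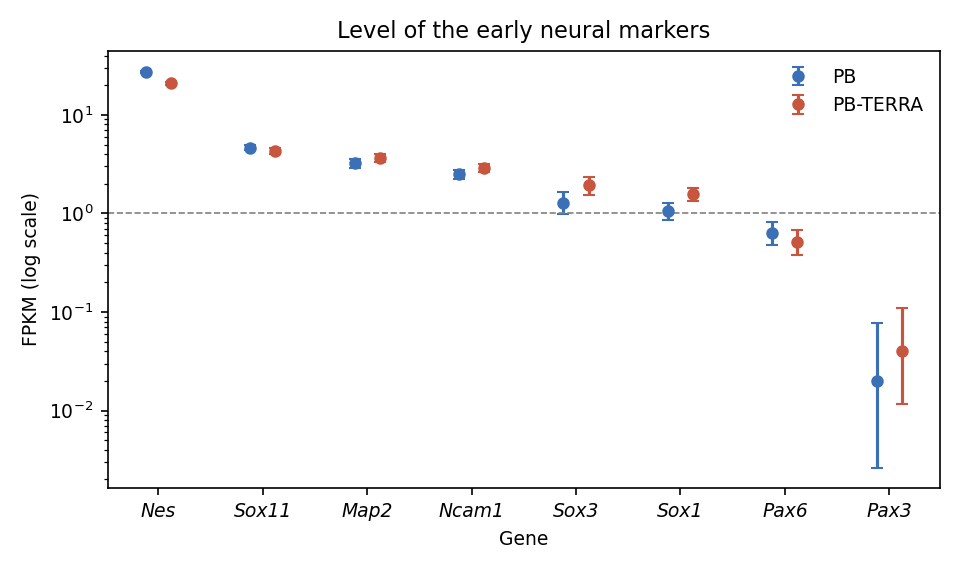
FPKM of the 8 markers (log axis) in PB (blue) and PB-TERRA (red), 1 library each, with exact 95% Poisson intervals of the estimated reads, and the filter of 1 FPKM as a dashed line. The order of the genes is the same in both libraries, from Nes at 27.30 and 20.93 FPKM to Pax3 at 0.02 and 0.04.

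Among the transcription factors, both SoxB1 markers were higher in PB-TERRA. Sox1, the reporter gene, had about 102 reads in PB against 152 in PB-TERRA. Its level was 1.47-fold higher in PB-TERRA, giving a log2 ratio of 0.52 (95% interval 0.19 to 0.94). Sox3, which lies on the X chromosome and shares much of its function with Sox1, had about 63 and 94 reads, 49.6% higher in PB-TERRA (log2 ratio 0.55, 95% interval 0.09 to 1.05). Together they had 165 reads in PB against 246 in PB-TERRA, giving a log2 ratio of the reads of 0.57 (95% interval 0.28 to 0.86). With Sox11 added, the 3 Sox markers had 1124 and 1135 reads, a log2 ratio of 0.0047 (95% interval -0.12 to 0.12), a sum in which Sox11 holds 959 and 889 of the reads. Sox1 and Sox3 are intronless in the GENCODE M21 annotation. Its transcript of Sox1, at 4832 bases, is longer than the 4037 bases deposited, and at that length the estimate was 123 and 183 reads with an interval of 0.23 to 0.91. The annotation also lists Sox1ot, a noncoding gene that overlaps Sox1 on the same strand and has no row in the table, and the library kit does not mark strand. Reads from the 2 genes therefore cannot be told apart where they overlap, and how reads of the reporter allele were counted is not given in the sources used here.

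Sox2, the third SoxB1 gene, is shared by mESCs and neural progenitors and was far more abundant. It had 133.91 FPKM in PB against 144.88 in PB-TERRA, giving a log2 ratio of 0.11 (95% interval 0.07 to 0.16). Its level was 126 times that of Sox1 in PB and 92.9 times in PB-TERRA. The SoxC marker Sox11, also intronless, was slightly lower in PB-TERRA, at 959 and 889 reads. Its log2 ratio was -0.12 with a 95% interval of -0.25 to 0.01, so a difference was not detectable within counting error. Of the 20 listed Sox genes, the 3 markers included, 19 are in the table and 10 passed the filter, 6 of them higher and 4 lower, with a median log2 ratio of 0.10, which was -0.02 when a mean of 5 FPKM was required. The interval lay above 0 for 5, among them Sox1, Sox3 and Sox2, and below 0 for 1, Sox15, where 18.1% and 17.5% of all genes past the filter had such intervals. The other SoxC genes differed little, Sox4 with 7.69 and 7.60 FPKM and Sox12 with 17.47 and 18.65. Sox12 is nonetheless among the 5, as its interval, 0.0021 to 0.19, lay just above 0.

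Pax6 and Pax3 were at the lower end of what these libraries resolve. Pax6 had about 57 reads in PB against 47 in PB-TERRA, giving a log2 ratio of -0.26 (95% interval -0.88 to 0.30). Pax3 had 2 reads in PB against 4 in PB-TERRA. Its interval, -1.81 to 4.46, spans both directions, and no difference was detectable at this depth. Of the 9 Pax genes 8 are in the table, and only Pax8, a regulator of thyroid and kidney development, passed the filter, with 2.06 and 2.36 FPKM. An antisense gene, Pax6os1, overlaps Pax6 in the annotation and has no row in the table.

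Nes was the most abundant marker and the one with the largest decrease. Its 4056 reads in PB against 3130 in PB-TERRA gave a level 1.30-fold lower in PB-TERRA. The log2 ratio was -0.38 (95% interval -0.45 to -0.32). Nes contributed 67.7% of the reads of the 8 markers in PB and 60.5% in PB-TERRA. Summed over the markers, the reads were 5992 and 5177, a log2 ratio of -0.22 (95% interval -0.27 to -0.17). Without Nes they were 1936 and 2047, a log2 ratio of 0.071 (95% interval -0.02 to 0.16), so the sum was lower in PB-TERRA only with Nes included.

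The 2 remaining markers, of neurons and of cell adhesion, were slightly higher in PB-TERRA. Map2 had a log2 ratio of 0.16 (95% interval -0.04 to 0.37). Ncam1 had a log2 ratio of 0.19, and its interval, -0.0028 to 0.40, just included 0. The table gives a single length per gene, whereas GENCODE M21 lists 7 complete coding transcripts of Map2 and 4 of Ncam1, the latter from 2525 to 6050 bases. Those of Map2, from 4981 to 6258 bases, are all longer than the 4791 bases deposited, and at the shortest its interval was -0.03 to 0.37. The reads and the interval of Map2 are nonetheless doubtful. A reason is the authors' own p-value of Map2, which was seen on inspection and entered no computation. Reads from transcripts shorter than the deposited length, as those of Ncam1 are, would be fewer than estimated here and the intervals wider. With the shortest coding transcript, the interval of Ncam1 ran from -0.13 to 0.52. Noncoding genes without a row overlap both markers on the opposite strand, Gm10558 at Map2 and Gm11149 at Ncam1. The enzymes that attach polysialic acid to Ncam1 in the developing brain were low, St8sia2 with 0.26 and 0.20 FPKM and St8sia4 with 0.27 and 0.45, and the paralogue Ncam2 was listed at 0.01, the floor of the table, in both.

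**Figure D2:**
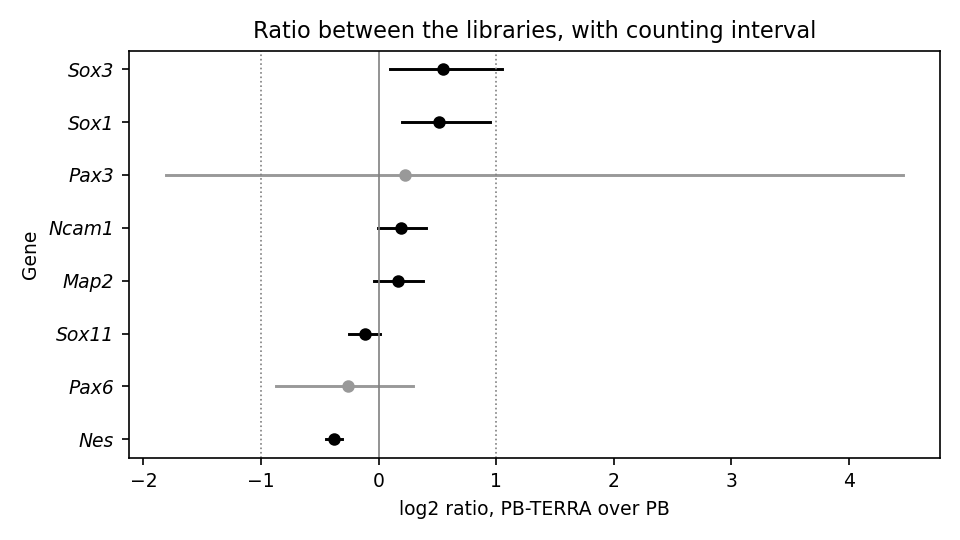
Log2 of PB-TERRA over PB, with 0.1 FPKM added to both, for the 8 markers (points), with the exact 95% binomial interval of the ratio of estimated reads (lines). Grey marks Pax6 and Pax3, which did not pass the filter, and dotted lines mark a log2 ratio of 1 in either direction, which no marker reached. The intervals of Sox1 and Sox3 lie above 0 and that of Nes below 0.

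Read together, 4 of the 6 markers past the filter were higher in PB-TERRA and 2 were lower, where 48.6% of all 12263 genes past the filter were higher. The median log2 ratio of the 6 was 0.18, against -0.0044 over all these genes. None of them (0 of 6) reached a log2 ratio of 1 in either direction, as 0.913% of all genes did. The interval lay above 0 for 2 of the 6, Sox1 and Sox3, and below 0 for 1, Nes. Over all genes the interval lay above 0 for 18.1% and below 0 for 17.5%, so such an interval is common between these libraries. Among genes with a mean from 1 to 2 FPKM, such as Sox1 and Sox3, it lay above 0 for 9.77%, and among genes of at least 20 FPKM, such as Nes, below 0 for 25.5%. With 6 markers, nothing is read from these shares. The 3 others past the filter, Sox11, Map2 and Ncam1, had intervals that included 0.

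The spread between the libraries depends on the level, so each marker was set beside genes of a similar level. Genes with a mean under 1 FPKM were left out here, because they pass the filter only through the library in which they are higher. Among the 1238 genes with a mean from 1 to 2 FPKM, the middle 95% of log2 ratios ran from -0.85 to 0.81. Sox1 and Sox3 lay inside it, and 77 and 71 of these genes, respectively, had a higher ratio. Among the 2139 genes from 2 to 5 FPKM the range was -0.51 to 0.55, with Ncam1 at percentile 82.0, Map2 at 78.5 and Sox11 at 30.1. Among the 4092 genes of at least 20 FPKM the range was -0.31 to 0.26. Nes lay below it, with 56 of these genes lower than Nes. The other 5 markers lay inside the range of their level, Sox1 at percentile 93.7 and Sox3 at 94.2. Long genes had slightly higher ratios in these libraries. Genes of the length of Nes and Ncam1 had a median of 0.05, and with this shift taken off the log2 ratio was -0.43 for Nes and 0.15 for Ncam1.

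**Figure D3:**
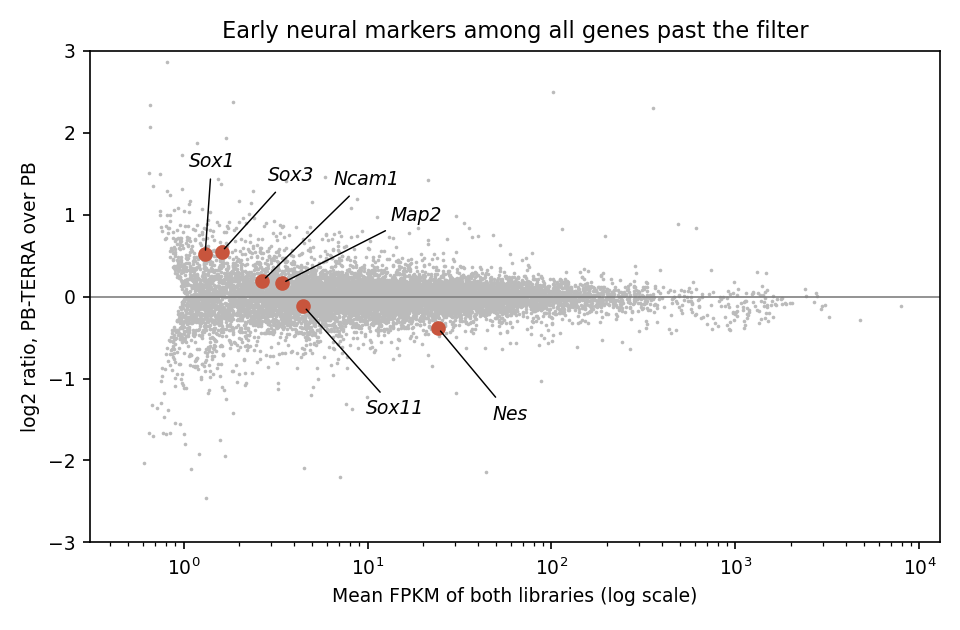
Log2 ratio, PB-TERRA over PB, against the mean FPKM of both libraries (log axis) for the 12263 genes past the filter (grey) and the 6 markers past it (red). The vertical axis is cut at 3 in either direction, which leaves out 22 genes. Genes with a mean under 1 FPKM appear only where 1 library reached the filter. Sox1 and Sox3 lie within the middle 95% of genes from 1 to 2 FPKM (-0.85 to 0.81), and Nes lies below that of genes of at least 20 FPKM (-0.31 to 0.26).

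Other genes of the neural lineage were divided into lists by role. Of 32 transcription factors of neural progenitors 31 are in the table and 10 passed the filter, 6 higher and 4 lower, with a median log2 ratio of 0.06. The interval lay above 0 for 3, among them Sox2 and Gbx2, which mESCs express as well. Gbx2, a homeobox factor, had 33.23 FPKM in PB against 37.10 in PB-TERRA (log2 ratio 0.16). It lay below 0 for 4 factors. Over all genes the shares were 18.1% above and 17.5% below 0. The other 21 factors in the table stayed under 1 FPKM in both libraries, among them the Notch target Hes5 with 0.14 and 0.03 FPKM and Zic1 with 0.09 and 0.16.

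Of 16 proneural and neuronal transcription factors 5 passed the filter, 4 higher and 1 lower, with a median log2 ratio of 0.30 and 3 intervals above 0, where 18.1% of all genes had one. This median is the ratio of Insm1, with 0.88 and 1.11 FPKM. Insm1 passed the filter only through PB-TERRA, where it is higher, and so is among the 4 higher only through that library. The median rests on few and low genes, and was 0.17 with 1 FPKM added, 0.14 without a filter and 0.039 when a mean of 5 FPKM was required. Neurod1, a helix-loop-helix factor of differentiating neurons, had 2.44 FPKM in PB against 4.25 in PB-TERRA, 1.74-fold higher (log2 ratio 0.78, 95% interval 0.50 to 1.11). Neurog2, a proneural factor that acts before it, was near absent, with 0.01 and 0.02 FPKM.

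Of 23 genes of the neuronal cytoskeleton and synapse 18 passed the filter, 6 higher and 12 lower, with a median of -0.05. The interval lay below 0 for 7 and above 0 for 2, against 17.5% and 18.1% of all genes, and 25.5% below 0 among genes of at least 20 FPKM. The 3 most abundant were all lower in PB-TERRA. The microtubule regulator Stmn2 had 190.27 and 175.75 FPKM (log2 ratio -0.11), neuronal beta-tubulin Tubb3 had 57.66 and 51.48 (-0.16), and the neuronal intermediate filament Ina had 54.04 and 45.15 (-0.26). These 3 genes were more abundant than Nes in both libraries. Doublecortin (Dcx), a microtubule protein of migrating neurons, was listed at the floor in both.

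Of 15 genes of progenitor structure and adhesion 9 passed the filter, 5 higher and 4 lower, with a median of 0.04. Vim, the intermediate filament that assembles with nestin, had 102.81 and 105.57 FPKM, and its interval (-0.02 to 0.10) included 0. The interval of the RNA-binding protein Msi2 lay above 0 (12.86 and 14.80 FPKM), and 2 genes of the list had an interval below 0, where 18.1% of all genes lay above and 17.5% below 0. In none of these lists did a gene past the filter reach a log2 ratio of 1 in either direction (0 genes).

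**Figure D4:**
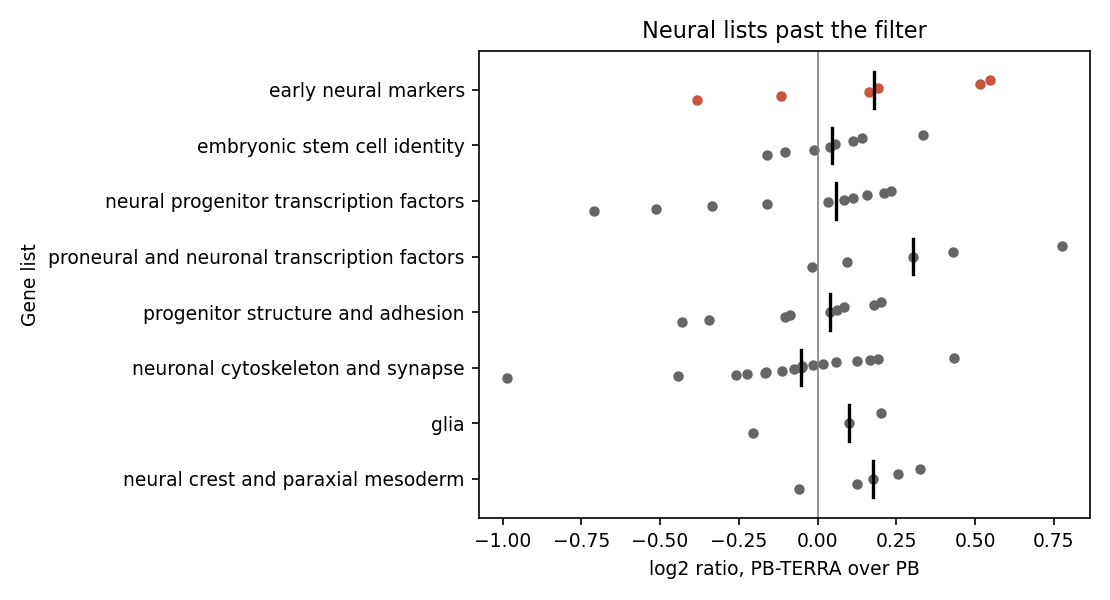
Log2 ratio, PB-TERRA over PB, of every gene past the filter in the early neural markers (red) and 7 further lists (grey), with the median of each list as a black bar. The markers range from -0.38 for Nes to 0.55 for Sox3, with a median of 0.18, and the genes of the neural lists lie on both sides of 0.

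The label of the cells was checked against markers of mESCs and of other cell types. All 8 mESC markers were abundant, from 27.02 to 1162.50 FPKM in PB and from 34.08 to 1039.92 in PB-TERRA, 5 of them higher and 3 lower. Of the 7 neural progenitor markers, which include Sox1, Pax6 and Nes, 3 passed the filter, and Fabp7 was near 0 (0.06 and 0.01 FPKM). Their summed level was 38.66 and 30.57 FPKM, mostly from Nes. Of 7 neuronal markers, which include Map2, 5 passed, with a summed level of 257.17 and 237.48 FPKM, mostly from Stmn2 (190.27 and 175.75). Glial markers were mostly low. Of the 10 genes of the glial list 3 passed, none (0) with an interval away from 0. The highest was Cnp with 4.58 and 4.92 FPKM, while Gfap had 0.31 and 0.22. The neural crest and paraxial mesoderm list, tissues in which Pax3 is expressed, had 5 of 15 genes past the filter, 4 higher and 1 lower, with a median of 0.18, which was 0.059 when a mean of 5 FPKM was required.

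Among markers of non-neural lineages, 5 endoderm genes summed to 4.95 FPKM in PB against 7.30 in PB-TERRA, 5 fibroblast genes to 18.51 and 22.34, 6 mesoderm genes to 17.47 and 15.73, 5 trophoblast genes to 277.70 and 278.61, and 4 epidermis genes to 2.55 and 2.63. Most of the trophoblast sum came from the keratins Krt8 and Krt18, while the lineage factor Cdx2 had 1.19 and 2.13 FPKM (log2 ratio 0.79, 95% interval 0.36 to 1.31) and Tfap2c 21.93 and 18.60 (-0.24, 95% interval -0.35 to -0.13). Single genes of a group differed in direction. Of the fibroblast genes, Col1a1 had 7.99 and 12.14 FPKM and Thy1 9.16 and 8.39, and of the mesoderm genes, Eomes had 6.13 and 5.05 FPKM and Kdr 0.79 and 1.11. Kdr, the only mesoderm gene past the filter that was higher, passed it only through PB-TERRA. No direction within the mesoderm group is read from it. The 3 endoderm genes past the filter were all higher in PB-TERRA, with 2 intervals above 0, where 48.6% of all genes were higher and 18.1% had such an interval. Of these genes, Mesp1, Elf5, Krt5, Trp63 and Postn were at most at 0.1 FPKM in both libraries, but others of the same groups were not. The mesoderm gene T had 9.08 and 8.37 FPKM, and the epidermis gene Krt14 had 2.09 and 1.85. The part of other cell types in the markers' differences was not tested, and in bulk RNA fewer cells of a type and less RNA per cell cannot be told apart.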

How the data were processed

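RNA of 46C mESCs with PB or PB-TERRA was sequenced by the authors as 1 library each. The submitters' processing notes name HISAT and Cufflinks and the build mm9. Versions and annotation are not given in the sources used here. The deposited table gives, for each gene, its length and an expression value per library. The header names no unit, and the values are read as FPKM, made by the authors and rounded to 2 decimals with a floor of 0.01. The table also holds the authors' own fold changes, p-values and calls. No computation used them, but the p-value of Map2 was seen when the table was inspected and is 1 reason why the estimated reads of Map2 are called doubtful.

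Depth was read from the steps of low FPKM values. In genes with an effective length under 900 bases and up to 12 reads, the scale and the number of bases taken off the length (113) were fitted so that FPKM times length gave whole reads. Of 768 values in PB and 804 in PB-TERRA, 83.9% and 87.9% lay within 0.2 of a whole read. Reads summed over all genes came to 24657269 and 24807788. They are estimates, because the table gives 1 length per gene. Intervals cover counting error only.

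Log2 ratios used FPKM + 0.1 and genes that reached 1 FPKM in either library. A log2 ratio of 1 in either direction, or an interval on 1 side of 0, was counted, with no test. The genes named are the markers, Sox2 and, from each list, the 3 genes with the highest mean FPKM and any gene past a log2 ratio of 1. Other genes were named after their values were seen, and some genes of the lists are not reported here. With 2 libraries, no gene was named for a pattern like that of a marker. The markers and lists were chosen with earlier results of these data known. Promoter windows came from RefSeq (GRCm38.p6), gene models from GENCODE M21. The depth fit and the intervals were tested on simulated data. Alternatives changed the pseudocount, scaling, filter, length trend and interval. Computations ran in Python 3.11.15 with pandas 2.3.3, numpy 2.4.6 and scipy 1.17.1, and plots in matplotlib 3.10.9.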

Additional observations from a re-analysis of the deposited data

How the results depend on the processing

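Of 201 alternative values, 191 stayed close to the reported value. Close means within the counting interval for a ratio, within 1.5 times for a count and, for the median of a list, within the median half-width of its genes' counting intervals, which is wide for low genes. The median of the proneural list thus counts as close although it ranged from 0.039 to 0.35, as does that of the neural crest list, from 0.059 to 0.20. The medians near 0 ranged from 0.019 to 0.091 for the progenitor factors and from 0 to 0.047 for progenitor structure. All 8 markers kept their direction under every scaling, pseudocount and length correction. The log2 ratio ranged from 0.31 to 0.57 for Sox1, from 0.36 to 0.58 for Sox3 and from -0.43 to -0.37 for Nes. The low end for both Sox genes came with 1 FPKM added. Only Nes has a mean of at least 5 FPKM, so with that filter 0 markers were higher and 1 was lower, with a median of -0.38. The summed reads changed direction without Nes, to a log2 ratio of 0.071. With 99% intervals that of Sox3 included 0 (-0.05 to 1.20), leaving 2 markers, and with all ratios centred on their median the interval of Ncam1 lay above 0 (0.0016 to 0.40), giving 4. Over all genes, the 112 past a log2 ratio of 1 became 45 with 1 FPKM added, 513 without a filter and 17 with a mean of at least 5 FPKM. The median of the fibroblast list, 0.53 over 3 genes, was 0.30 with 1 FPKM added, 0.17 without a filter and 0.24 with a mean of at least 5 FPKM. The value of 0.53 is that of Col1a2 (0.92 and 1.37 FPKM), which passed the filter only through PB-TERRA. Centring took off the median of all genes, -0.0044, and a median-of-ratios factor took off -0.0041. The reads at the shortest coding transcript were added after the data were seen and left 3 markers with an interval on 1 side of 0. Leaving out genes with a mean under 1 FPKM when markers were set beside genes of their level was also chosen after seeing the data. No paired analysis was possible because each condition has 1 library.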

Other observations

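Within the lists of neural genes, further genes were picked after their values were seen, and not by the size of the ratio alone. Zic2 and Zic5, zinc finger genes that lie next to each other and act in the early neural plate, were both lower in PB-TERRA. Zic2 had 18.31 FPKM in PB against 11.16 in PB-TERRA (log2 ratio -0.71, 95% interval -0.84 to -0.59). Zic5 had 8.64 and 6.03 FPKM (-0.51, 95% interval -0.72 to -0.32). Otx2, a factor of the epiblast and forebrain, had 11.64 and 9.21 FPKM (-0.33), and Pou3f1 had 18.47 and 16.50 (-0.16). These were the 4 progenitor factors with an interval below 0. In the progenitor list, Prom1, a membrane protein of stem cells, had 5.04 and 3.71 FPKM (-0.43), and the RNA-binding protein Msi1 had 9.38 and 7.37 (-0.34).

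Of the intermediate filament genes of neurons, Nefm had 1.88 FPKM in PB against 0.90 in PB-TERRA, from about 145 and 70 reads (log2 ratio -0.99, 95% interval -1.49 to -0.64), and Nefl had 17.63 and 15.07 FPKM (-0.22). Nefh was slightly higher, with 17.23 and 17.96 FPKM (0.06), and its interval included 0. Stmn3 had 7.19 and 9.74 FPKM (0.43), in contrast to the related Stmn2. Syp, of the same list, had 3.9 and 2.84 FPKM (-0.44, 95% interval -0.76 to -0.17). Pou4f1, of the proneural list, had 1.72 and 2.35 FPKM (0.43, 95% interval 0.12 to 0.77).

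The table carries gene ontology terms for processes. No process term was held by more than 2 of the 8 markers, and Sox11 and Ncam1 carried 0. The term neuron differentiation, held by Pax3, marks 110 genes, of which 67 passed the filter, 32 higher and 34 lower, with a median log2 ratio of -0.00068. The interval lay above 0 for 17 and below 0 for 6, where it did so for 18.1% and 17.5% of all genes past the filter. Nervous system development, held by Sox3, marks 85 genes, of which 53 passed, 23 higher and 30 lower, with 8 intervals above 0 and 10 below 0. Dendrite development, held by Map2, had 27 genes past the filter, 15 higher and 12 lower, with 4 intervals above 0 and 7 below 0. Axon guidance had 31, with 16 higher, 12 lower, 7 intervals above 0 and 3 below. Neuron migration had 21, with 11 higher, 10 lower, 7 intervals above 0 and 3 below. These terms were chosen after the values were seen.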
